A study of Xenopus tropicalis with 12 samples.

Results

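Transcripts of Xenopus tropicalis animal caps were counted after injection of human PHF8 mRNA without any morpholino, and the libraries were set against all control libraries of the same experiment. Animal caps are pieces of the future ectoderm, cut from early embryos, that form a mucociliary epidermis in culture, and all were at Nieuwkoop and Faber (NF) stage 16. The hPhf8 group received the human mRNA alone, the CoMo group a control morpholino, which is an oligonucleotide directed at no frog transcript, and no mRNA, and the LacZ group mRNA of bacterial beta-galactosidase. Members were chosen by their titles: hPhf8 replicates 1 and 3 and the 3 CoMo and 3 LacZ libraries, together 8 of the 12 libraries of the series. The libraries that received the same mRNA together with SUV4-20H morpholinos were not used. The hPhf8 replicate 2 was left out because its gene counts were low, and its values are given separately. Each library was made from total RNA of explants that hold several cell types. The labels number the replicates and do not say whether they came from separate clutches, so the p-values measure only the spread between these libraries.

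PHF8 is a demethylase that removes methyl groups from histone lysines, among them the single methyl group on lysine 20 of histone H4 (H4K20me1). SETD8 places this first methyl group, and the SUV4-20H enzymes add further ones to it. The epidermis that animal caps form contains multiciliated cells (MCCs), which carry motile cilia, beside ionocytes, mucus-producing goblet cells and small secretory cells. The comparison asked how far transcript levels after PHF8 mRNA by itself differed from those of explants given a control reagent.

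The control libraries held between 14361942 and 35584520 sense counts over genes, hPhf8 replicates 1 and 3 held 14484963 and 10424713, and hPhf8 replicate 2 held 2204210. In read pairs, hPhf8 replicate 2 had 24852342, beside 25263221 in hPhf8 replicate 3. Of its pairs, 31.1% were unmapped, 36.0% mapped to several places and 8.87% were counted on genes, beside 41.3% on genes in hPhf8 replicate 3. Read pairs that mapped to several places made up 6.62% to 8.15% in the controls, 6.63% in hPhf8 replicate 1 and 10.9% in hPhf8 replicate 3. Counts on the antisense strand, as a share of sense and antisense counts together, were 2.34% to 2.88% in the controls, 2.58% in hPhf8 replicate 1, 3.62% in hPhf8 replicate 3 and 23.5% in hPhf8 replicate 2. Replicate 3 therefore lay outside the control range in both measures, and their part in the results below was not tested. The frog genome was the only reference, so neither human PHF8 nor LacZ transcripts have an entry in the counts and the presence of the injected mRNA could not be checked.

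After PHF8 mRNA alone, the transcriptome lay as far from the control mean as single control libraries lay from the other controls, but further from the same-numbered controls than these lay from each other. For each library the root mean square (RMS) difference in log2 CPM (counts scaled to the size of the library) from the mean of the controls was computed over 14755 genes, with each control set against the other 5. This distance was 0.55 for hPhf8 replicate 1 and 0.59 for hPhf8 replicate 3. The CoMo libraries 1 to 3 were at 0.57, 0.62 and 0.43, and the LacZ libraries at 0.57, 0.62 and 0.45. Both hPhf8 values thus fell inside the control range of 0.43 to 0.62. At 2.02, hPhf8 replicate 2 lay far outside it. Between single libraries, RMS differences were 0.55 to 0.89 for the pairs of a control and an hPhf8 library, 0.42 to 0.91 for the pairs of controls, and 0.71 between hPhf8 replicates 1 and 3. Among libraries with the same replicate number, the 3 pairs of CoMo and LacZ were at 0.42 to 0.51 and the 4 pairs of a control and an hPhf8 library at 0.63 to 0.75, so these values did not overlap. However, hPhf8 replicate 3 was nearer to CoMo and LacZ replicate 2, at 0.55 and 0.65, than to CoMo and LacZ replicate 3, at 0.70 and 0.75. Whether its number matches it to the number 3 controls is therefore uncertain.

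**Figure D1:**
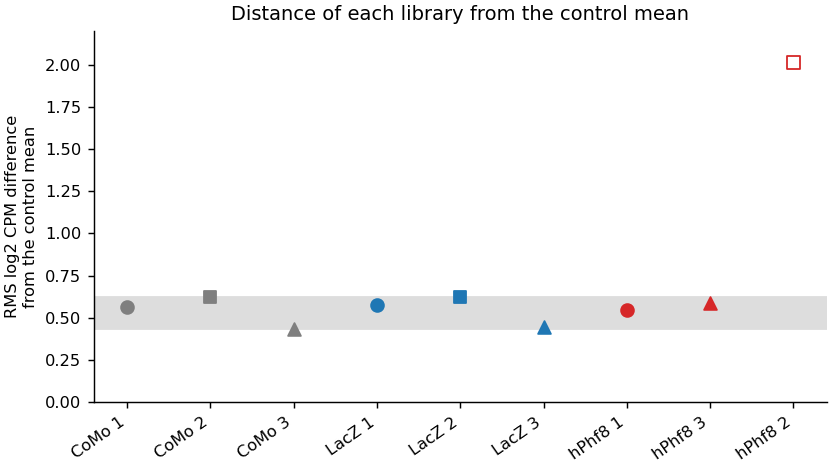
RMS log2 CPM difference of each library (x axis) from the mean of the control libraries, over the 14755 genes averaging 10 counts or more. Grey points are CoMo, blue points LacZ, red points hPhf8, and the grey band is the range of the 6 controls, 0.43 to 0.62. The hPhf8 replicates 1 and 3 lie in the band and hPhf8 replicate 2, the open symbol, lies at 2.02.

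Gene by gene, no transcript passed the main test, which did not pair libraries by replicate number. Of 18259 genes tested with edgeR's quasi-likelihood test, 0 (0%) had a Benjamini-Hochberg adjusted p-value under 0.05. The lowest, 0.108, belonged to tbx1. An unadjusted p-value under 0.05 was found for 1312 genes (7.19%), of which 732 (4.01%) had a positive and 580 (3.18%) a negative log2 fold change. With DESeq2, 19 genes (0.104%) passed, 12 higher and 7 lower, and 1338 had an unadjusted p-value under 0.05. The LacZ libraries against the CoMo libraries gave 0 of 17988 genes (0%) with edgeR, 615 (3.42%) at an unadjusted p-value under 0.05, and 0 and 603 with DESeq2. This comparison of 3 libraries with 3 has the same sum of inverse group sizes, 0.667, as that of 2 with 6, and it shares the control libraries with it. It rests on fewer libraries, and LacZ and CoMo each hold numbers 1 to 3, whereas hPhf8 lacks number 2 here. Any difference shared by a number is therefore balanced only between LacZ and CoMo, so the 2 comparisons are not fully alike. Against the LacZ libraries alone 0 genes passed in edgeR and 1272 had an unadjusted p-value under 0.05, and against the CoMo libraries alone the counts were 0 and 820. When the replicate number entered the edgeR fit as a block, so that same-numbered libraries were compared, the test called 767 genes (4.2%). The labels do not say that a number marks shared embryos. Without the block, differences between the numbers count as spread within the groups.

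The median difference between the groups was smaller than the median SD of single control libraries. These are unlike measures, since group means vary less than single libraries, and the SD also holds differences between the replicate numbers. Over all genes tested, the median absolute log2 fold change was 0.26 and the median standard error (SE) 0.32, while the median SD of the 6 controls was 0.36 on the log2 scale. Among the 10076 genes that averaged at least 100 counts, the median absolute log2 fold change was 0.19 and the median SE was 0.21. For LacZ against CoMo, which is balanced over the replicate numbers, the median absolute log2 fold change was 0.16 among 10232 genes. Of these 10076 genes, 90 (0.893%) had an estimated change of at least 2-fold, 38 higher and 52 lower, and in 26 of the 90 both hPhf8 libraries lay beyond all controls. The 95% interval of the fold change lay within 2-fold in either direction for 8119 of them (80.6%). Over all genes tested it did so for 9040 (49.5%), and for the remaining, mostly weakly expressed genes a 2-fold difference remained possible at this depth.

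Both hPhf8 libraries lay beyond the range of the 6 controls for 1857 genes (10.2%), above it for 1063 (5.82%) and below it for 794 (4.35%). Were the 8 libraries interchangeable, a share of 0.0714 of the genes would be expected to lie beyond on either side. Same-numbered controls deviated together and hPhf8 lacks number 2 here, so this share is a reference only. The part of the mRNA in the count was not tested. Of the genes below, 48 had 0 counts in both hPhf8 libraries, and none of these reached a mean of 10 counts. The number was 3370 without CoMo replicate 2, the control nearest to the hPhf8 libraries for 15 of the 23 genes named below, and 5901 or 5464 when a single hPhf8 library remained after leaving out replicate 1 or 3. When hPhf8 replicate 2 also had to lie beyond the controls, 814 genes remained, 338 above and 476 below. Within the same 10076 genes, 510 lay above and 506 below the controls, whose own highest and lowest values differed by a median of 1.61-fold.

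**Figure D2:**
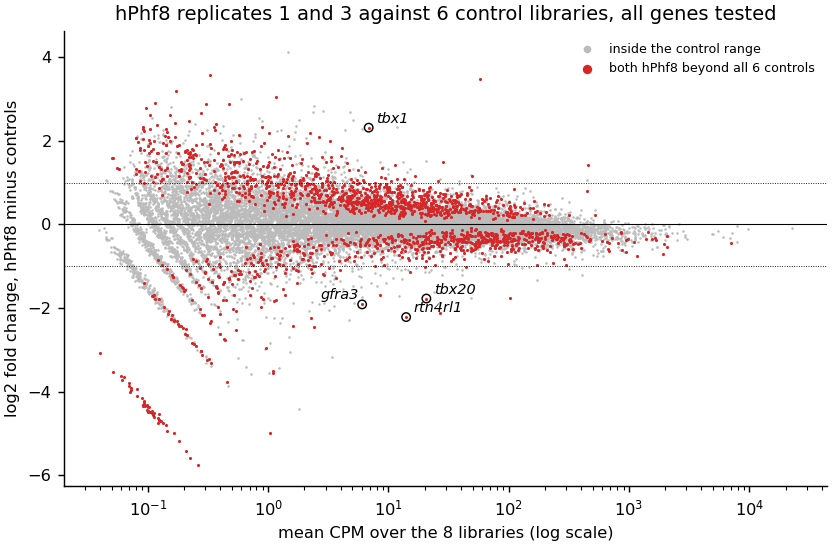
Log2 fold change of hPhf8 replicates 1 and 3 over the 6 controls (y axis) against the mean CPM over the 8 libraries (x axis, log scale) for the 18259 genes tested. Red points are the 1857 genes with both hPhf8 values beyond all controls, dotted lines mark 2-fold, and the arm at the lower left holds genes with 0 counts in both hPhf8 libraries, whose fitted values depend on the prior count. Circles mark tbx1, rtn4rl1, gfra3 and tbx20.

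Gene names could be given to 6622 of the 34177 gene IDs, 5170 of them with a gene symbol. Of the 5103 tested genes with a symbol, 613 (12%) had an unadjusted p-value under 0.05, 297 (5.82%) higher and 316 (6.19%) lower. In 350 (6.86%) both hPhf8 libraries lay above the controls and in 300 (5.88%) below. These shares exceed those of all genes, and the tables that gave the names had been ordered by differences in these or related libraries, so genes with a symbol are not a random sample. The 12 higher and 11 lower genes described had a symbol, averaged at least 100 counts, had both hPhf8 values beyond all controls and were taken by the smallest unadjusted p-value. None of them passed the adjusted threshold in the main test, and since the choice used the p-values their fold changes are descriptions. Gene lists were matched by symbol, and except for 1 endoderm gene, which did not pass the filter on low counts, the listed genes that were not tested had no ID paired with their symbol.

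Among the genes with the higher levels, tbx1 stood apart. This T-box transcription factor of pharyngeal and ear development (chromosome 1) was at 14.1 and 20.1 CPM in hPhf8 replicates 1 and 3, against 2.15 to 4.44 CPM in the controls, median 3.53. Its log2 fold change was 2.31 (SE 0.28), a 4.97-fold difference, with an adjusted p-value of 0.108 in edgeR and 6.97e-09 in DESeq2. In hPhf8 replicate 2, tbx1 was at 0 CPM, below all controls. The heat shock factor hsf4 was at 22.4 and 20.5 CPM against 4.47 to 12.6 in the controls, median 7.90 (log2 fold change 1.42, SE 0.35, edgeR adjusted p = 0.693). For galc, a lysosomal enzyme that degrades galactolipids, the values were 15.0 and 14.5 CPM against 4.30 to 9.28, median 6.30 (log2 fold change 1.14). The kinase-like adck4, which takes part in coenzyme Q synthesis, was at 27.9 and 29.2 CPM against 8.95 to 18.7, median 11.1 (log2 fold change 1.16). In hsf4, galc and adck4 the hPhf8 libraries were within a narrow range of each other, and in all 4 genes they lay clear of every control, as the choice required.

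The other genes of the higher group lay between log2 fold changes of 0.62 and 0.94. They were entpd3, an ectonucleotidase, taf1b, a subunit of the RNA polymerase I initiation factor, elavl2, an RNA-binding protein of neurons, grb7, an adaptor of receptor tyrosine kinases, and akap2, an anchor of protein kinase A. The group also held slc27a4, a fatty acid transporter, slc30a4, a zinc transporter, and rnf5, a ubiquitin ligase of the endoplasmic reticulum. The most abundant of them, slc27a4, was at 169 and 160 CPM against 72.9 to 134 in the controls, median 83.7 (log2 fold change 0.85, SE 0.20). The Pol I factor gene taf1b was at 19.5 and 20.5 CPM against 9.39 to 13.9, median 10.01 (log2 fold change 0.90, SE 0.19). In entpd3 the values of 14.5 and 14.7 CPM stood against 6.76 to 9.16, median 7.88 (log2 fold change 0.87, SE 0.18). DESeq2 gave entpd3 and taf1b adjusted p-values of 0.0267 and 0.0298. All adjusted p-values of these genes in edgeR were 0.693.

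Among the 11 lower genes chosen, the largest difference was that of rtn4rl1, a receptor of the Nogo receptor family (chromosome 2). It was at 2.47 and 5.11 CPM in the hPhf8 libraries against 10.1 to 23.8 CPM in the controls, median 17.6, which gives a log2 fold change of -2.21 (SE 0.41). Its adjusted p-value was 0.693 in edgeR and 9.93e-05 in DESeq2. With 20.7 CPM, hPhf8 replicate 2 lay among the controls. The co-receptor gfra3, which binds a ligand of the GDNF family, was at 2.67 and 1.21 CPM against 4.99 to 11.5, median 7.05 (log2 fold change -1.91, SE 0.42). The T-box factor tbx20 was at 5.74 and 9.02 CPM against 15.3 to 38.7, median 25.8 (log2 fold change -1.77, SE 0.39).

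The Notch ligand dll1, which in Xenopus epidermis limits the number of MCCs and ionocytes, was at 96.1 and 103 CPM against 125 to 259 CPM in the controls, median 184 (log2 fold change -0.96, SE 0.25). The secreted protein tsku, a modulator of BMP and Wnt signaling, was at 166 and 179 CPM against 219 to 429, median 339 (log2 fold change -0.97, SE 0.24). The homeobox gene msx2, a target of BMP signaling, was at 164 and 117 CPM against 192 to 317, median 266 (log2 fold change -0.91, SE 0.23). For all 3 the nearest control was CoMo replicate 2. The von Hippel-Lindau gene vhl, a substrate receptor for hypoxia-inducible factors, was at 11.8 and 11.0 CPM against 14.7 to 27.7, median 24.5 (log2 fold change -1.03, SE 0.24). The other genes were mettl24, rasd1, a small GTPase, ikzf4, a zinc finger factor, and sec24d-like.1, named after a vesicle coat protein. Their log2 fold changes lay between -0.64 and -0.99, and DESeq2 gave mettl24, gfra3, tbx20, rasd1 and vhl adjusted p-values between 0.0104 and 0.0498. As sec24d-like.1 is numbered as 1 of several copies, its counts may be uncertain, which was not tested.

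The library that the choice did not use, hPhf8 replicate 2, lay beyond the controls on the same side for 14 of the 23, 7 higher and 7 lower. Of all 1857 genes beyond the controls it did so for 814, and this library of low gene counts lay far from the controls in general. Of the 19 genes that DESeq2 called, 18 lay beyond the control range and 14 had a symbol, of which 9 are among the 23. Others were xkr9 and plch2, with higher values in both hPhf8 libraries, and mpo and spib, which were high in hPhf8 replicate 3 only or mainly. Of the IDs with no name, gene6938 was at 56.9 and 52.7 CPM against 11.3 to 29.0 in the controls, and gene8226 at 31.1 and 26.1 against 15.9 to 20.6. On the lower side gene32185 was at 43.7 and 39.4 CPM against 52.8 to 78.6, and gene23107 at 28.2 and 30.7 against 34.2 to 53.8.

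**Figure D3:**
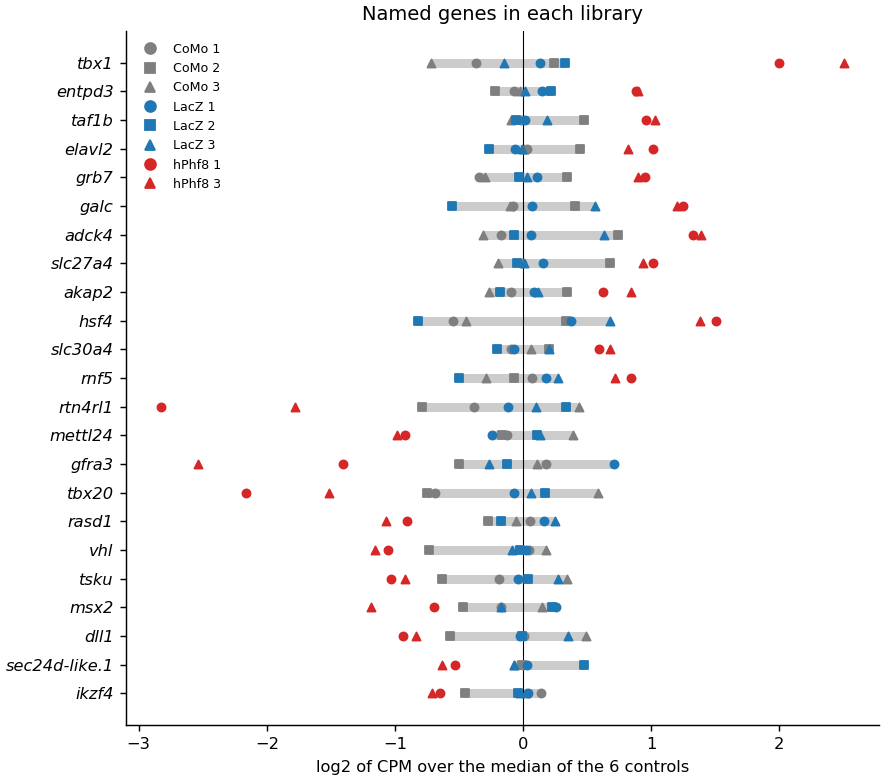
Level of the 23 genes in each library as log2 of CPM over the median of the 6 controls (x axis), with 12 higher genes above and 11 lower genes beneath. Grey bars span the controls, grey points are CoMo, blue points LacZ and red points hPhf8, with circles, squares and triangles for replicates 1, 2 and 3. The largest gaps between the hPhf8 libraries and the controls are those of tbx1 and rtn4rl1.

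The genes of the H4K20 pathway were examined next, since PHF8 acts on this residue. The frog's own phf8 (chromosome 8) was at 115 and 142 CPM in the hPhf8 libraries against 137 to 196 in the controls, median 159. Its log2 fold change was -0.33 (SE 0.17, 95% interval -0.70 to 0.04), and the edgeR adjusted p-value was 0.706. The SUV4-20H1 gene suv420h1 (chromosome 4) was at 59.9 and 68.2 CPM against 64.8 to 121, median 95.7, a log2 fold change of -0.59 (SE 0.22, unadjusted p = 0.0205 and adjusted p = 0.693 in edgeR). The SUV4-20H2 gene kmt5c (chromosome 7) was at 87.1 and 90.9 CPM, below all controls at 95.4 to 147, median 108 (log2 fold change -0.38, SE 0.18, edgeR adjusted p = 0.697). The gene of the monomethylating enzyme, setd8 (chromosome 1), was at 67.8 and 68.3 CPM, above all controls at 46.2 to 59.0, median 54.2 (log2 fold change 0.33, SE 0.14, unadjusted p = 0.0370 and adjusted p = 0.693 in edgeR). In hPhf8 replicate 2 there were 143 CPM of phf8, 58.7 of suv420h1, 117 of kmt5c and 73.7 of setd8, so that it lay beyond the controls on the same side for suv420h1 and setd8 and inside their range for phf8 and kmt5c. The lowest control for suv420h1 and kmt5c was CoMo replicate 2. None of these differences passed the test over all genes, and each interval lay within or reached little past 2-fold.

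Among 16 tested genes of histone methylation (25 listed), including these 4, 0 were called and 11 had negative log2 fold changes. The median was -0.16, beside -0.01 over all genes, and the values ran from -0.59 to 0.33. One gene lay above and 1 below the controls, and an unadjusted p-value under 0.05 was found for 1 higher (setd8) and 1 lower gene (suv420h1). Among the genes with a symbol, 6.86% lay above and 5.88% below, and 5.82% and 6.19% were higher and lower at that p-value. The most abundant member, the H3K9 demethylase kdm3a, was at 304 and 351 CPM against 341 to 378, median 373. The H3K27 methyltransferase ezh2 was at 218 and 233 CPM against 191 to 228, median 212, and the H3K9 methyltransferase ehmt1 at 193 and 200 against 180 to 292, median 239. For 14 of the 16 genes the 95% interval lay within 2-fold in either direction.

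**Figure D4:**
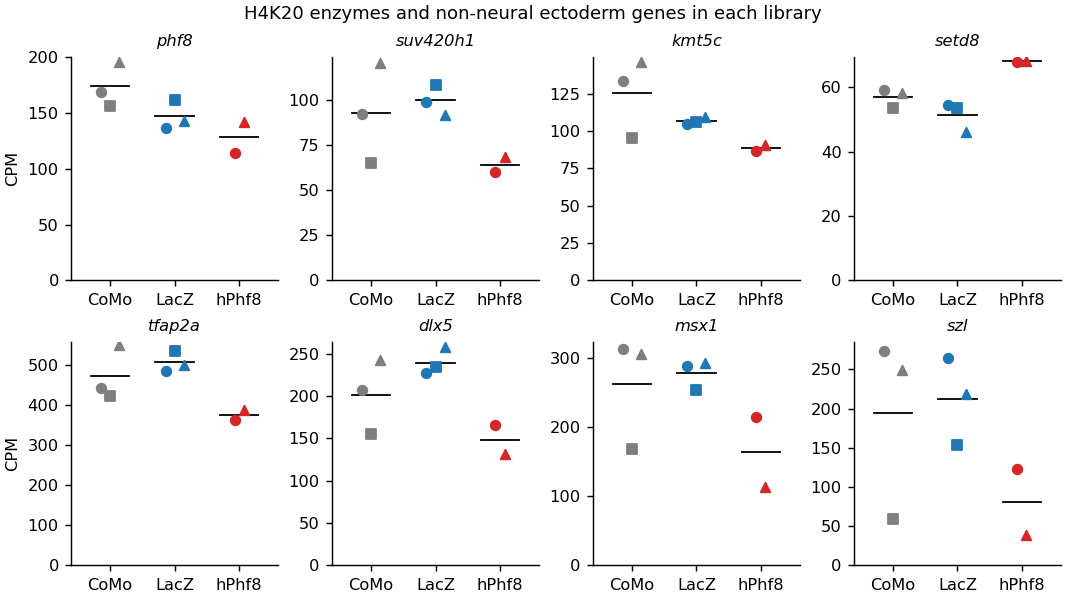
CPM in each library (y axes, starting at 0) of the H4K20 genes phf8, suv420h1, kmt5c and setd8 (top) and of the ectoderm genes tfap2a, dlx5, msx1 and szl (bottom). Circles, squares and triangles are replicates 1, 2 and 3, and bars are group means. Both hPhf8 libraries lie above all controls for setd8 and below all controls for kmt5c and tfap2a, and CoMo replicate 2 is close to them for szl and msx1.

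The listed transcripts of motile cilia did not leave the range of the controls, but their median was lower than in the same-numbered controls. Of 66 tested genes of motile cilium structure and assembly (79 listed), 0 were called, 0 had an unadjusted p-value under 0.05 and 0 lay beyond the controls, beside 12% and 12.7% of the genes with a symbol in the latter measures. Negative log2 fold changes were found for 57 of the 66, with a median of -0.20 and values between -0.64 and 0.26. The median was -0.33 against LacZ and -0.10 against CoMo. Against all controls it was -0.50 without hPhf8 replicate 1 and 0.07 without hPhf8 replicate 3. Against the same-numbered controls the median was -0.41 for replicate 1 and -0.44 for replicate 3. The axonemal gene hydin, of the central pair, was at 459 and 371 CPM against 320 to 1061 in the controls, median 641 (log2 fold change -0.64, SE 0.40). The dynein heavy chain gene dnah9 was at 422 and 346 CPM against 279 to 848, median 400, and the centrin gene cetn4 at 585 and 376 against 366 to 846, median 598. Among controls the summed level of the list ran from 5016 CPM in CoMo replicate 2 to 12326 CPM in LacZ replicate 1, and hPhf8 replicates 1 and 3 were at 7976 and 5539 CPM. The same-numbered CoMo and LacZ libraries were at 10106 and 12326 CPM for number 1 and at 6294 and 8985 CPM for number 3. Each hPhf8 sum thus lay below both controls of its number. For 36 of the 66 genes the 95% interval lay within 2-fold in either direction, beside 62.5% of the tested genes with a symbol. Of 152 genes that the study marks as cilium genes, 0 were called, with a median of -0.18. Of these, 0 lay above and 2 below the controls, beside 6.86% and 5.88% of the genes with a symbol. The marks were known only for genes in the rows read of the study's knockdown table, at most 2000. These genes are thus a selected part of those it marks.

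The 7 tested regulators of MCC formation and centriole amplification (13 listed) also lay inside the control range, with 0 called and 0 at an unadjusted p-value under 0.05. Among the genes with a symbol, 12.7% lay beyond the controls and 12% had such a p-value. The median log2 fold change of the 7 was -0.11, which was 0.04 with library size as the only scaling. That scaling moved the median of all genes to 0.12. The transcription factor rfx2, which drives cilia genes, was at 474 and 446 CPM against 360 to 615, median 501. The gene foxn4, of the same list, was at 308 and 274 CPM against 196 to 418, median 324. The gene cdc20b, which lies in the MCC program, was at 280 and 242 CPM against 155 to 345, median 260. The 95% interval lay within 2-fold for all 7. Of 311 genes marked as cytoskeleton genes by the study, 0 were called, 6 had a positive and 5 a negative log2 fold change at an unadjusted p-value under 0.05, beside 5.82% and 6.19% of the genes with a symbol, and 7 lay above and 5 below the controls, beside 6.86% and 5.88%. The median was -0.10, or 0.04 with library size alone, and ran from -0.30 to 0.04 when 1 library was left out. As with the cilium genes, these 311 are a selected part of the genes that the study marks.

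Ionocyte genes had the highest median of the lists from cell types of the epidermis. Of 13 tested genes (14 listed), 0 were called, 12 had positive log2 fold changes and the median was 0.63, beside -0.01 over all genes. The anion exchanger slc26a4 (pendrin) was at 781 and 685 CPM against 206 to 713 in the controls, median 258 (log2 fold change 1.05, SE 0.42, unadjusted p = 0.0320 and adjusted p = 0.693 in edgeR). The transcription factor foxi1, which specifies ionocytes, was at 390 and 368 CPM against 172 to 462, median 196 (log2 fold change 0.63, SE 0.33). The transcription factor ubp1 was at 200 and 229 CPM against 101 to 261, median 137. None of the 13 genes lay beyond the controls, beside 12.7% of the genes with a symbol, and LacZ replicate 3 lay near the level of the hPhf8 libraries. The summed level of the list was 2867 and 2558 CPM in hPhf8 replicates 1 and 3, 1250 to 1411 in CoMo, and 2178, 1052 and 3076 in LacZ replicates 1 to 3. The median was 0.32 against LacZ and 0.99 against CoMo. In hPhf8 replicate 2 the sum was 1464 CPM. In these bulk libraries more cells of a type and more RNA per cell cannot be told apart.

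Genes of the non-neural ectoderm had more members at a low unadjusted p-value than the lists of other tissues and cell types. Of 13 tested genes (18 listed), 0 were called, 10 had negative log2 fold changes and the median was -0.32. The 3 genes with positive log2 fold changes were krt12 (0.87, SE 0.43), ventx1.1 (0.40, SE 0.26) and ventx2.2 (0.099, SE 0.19). The keratin gene krt12 was at 298 and 113 CPM against 52.4 to 186 in the controls, median 102. An unadjusted p-value under 0.05 was found for 5 genes, all lower, beside 6.19% of the genes with a symbol, and these 5 were singled out after their values were seen. The transcription factor tfap2a was at 363 and 388 CPM, below all controls at 423 to 550, median 494 (log2 fold change -0.39, SE 0.15). The distal-less gene dlx5 was at 166 and 131 CPM against 155 to 258, median 231 (log2 fold change -0.57, SE 0.20), and dlx3 at 116 and 74.98 against 94.8 to 168, median 159 (log2 fold change -0.62, SE 0.24). The BMP target msx1 was at 214 and 113 CPM against 168 to 313, median 290 (log2 fold change -0.73, SE 0.28). The secreted inhibitor szl, a feedback regulator of BMP signaling, was at 123 and 38.8 CPM against 58.6 to 274, median 234 (log2 fold change -1.33, SE 0.57). For dlx3, dlx5, msx1 and szl the lowest control was CoMo replicate 2, which lay below hPhf8 replicate 1 in each. All 5 had an edgeR adjusted p-value of 0.693.

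The abundant adhesion genes of the same list, cdh1 and epcam, differed less. The adhesion gene cdh1 was at 1445 and 1142 CPM against 1153 to 1510, median 1321, a log2 fold change of -0.05 (SE 0.16, 95% interval -0.40 to 0.30), and its sign turned with library size as the only scaling. The adhesion molecule epcam was at 1290 and 999.6 CPM against 1083 to 1625, median 1277 (log2 fold change -0.22, SE 0.19). The zinc finger factor gata2, also abundant, differed by more. It was at 1263 and 1277 CPM against 1117 to 2298, median 1914 (log2 fold change -0.53, SE 0.25, edgeR adjusted p = 0.697). The list's median level lay below the controls' mean in both hPhf8 libraries, at -0.31 and -0.33 on the log2 scale, where the controls ran from -0.21 to 0.16.

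Of 7 tested genes of goblet and small secretory cells (12 listed), 0 were called and the median log2 fold change was -0.11, or 0.02 with library size alone, but the 2 hPhf8 libraries differed, with 0.31 and -0.55 for the median member. The homeobox gene nkx2-3 was at 149 and 149 CPM, below all controls at 164 to 300.0, median 232 (log2 fold change -0.62, SE 0.22, unadjusted p = 0.0182 and adjusted p = 0.693 in edgeR). The ETS factor spdef, singled out after its values were seen, was at 12.1 and 15.2 CPM against 5.32 to 13.3, median 5.91 (log2 fold change 0.80, SE 0.36). For the goblet cell genes otog, at 5854 and 4276 CPM, and itln1, at 110 and 43.6 CPM, hPhf8 replicate 1 lay above and hPhf8 replicate 3 below the control medians of 5549 and 75.8 CPM. The sign of the list's median turned to 0.19 without hPhf8 replicate 3.

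Levels of neural and mesoderm markers varied between libraries within each group. The summed level of 9 tested neural plate and neural crest genes (18 listed) was 81.6 CPM in hPhf8 replicate 1 and 227 CPM in hPhf8 replicate 3. It was 197 in CoMo replicate 2 and 203 in LacZ replicate 2, and between 51.7 and 104 in the other controls. For 7 tested mesoderm and organizer genes (14 listed) the sum was 22.9 and 43.5 CPM in hPhf8 replicates 1 and 3, 31.9 and 49.9 in CoMo and LacZ replicate 2, and between 9.20 and 13.1 in the other controls. Both hPhf8 sums for mesoderm thus lay above all controls numbered 1 and 3, but inside the full control range. The neuronal RNA-binding protein elavl3 was at 8.94 and 51.8 CPM, against 5.42 to 51.7, the neural adhesion molecule ncam1 at 27.3 and 93.5 against 20.0 to 70.9, and the BMP antagonist chrd at 2.94 and 30.6 against 2.54 to 17.6. The crest factor snai2 was at 28.8 and 15.9 CPM, against 8.34 to 32.2, and the mesodermal genes vegt at 14.7 and 5.11 against 2.87 to 19.0 and wnt8a at 2.87 and 2.601 against 0 to 6.38. Of these 16 genes 0 were called, 0 had an unadjusted p-value under 0.05 and 0 lay beyond the controls. Among the genes with a symbol the shares in the latter measures were 12% and 12.7%. Among 4 tested endoderm genes (12 listed) 0 were called, and their summed level was 4.94 and 5.55 CPM against 3.35 to 8.51 in the controls. The part of these differences between explants in the low ectoderm genes of hPhf8 replicate 3 and CoMo replicate 2 was not tested.

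General responses were examined with the last lists. For reference, 12% of the genes with a symbol had an unadjusted p-value under 0.05. Of the same genes 12.7% lay beyond the controls, and 5.88% lay below them. Of 34 tested immediate early and stress response genes (36 listed), 0 were called, 0 had an unadjusted p-value under 0.05 and 0 lay beyond the controls, with a median log2 fold change of -0.06 (0.06 with library size alone) and the 95% interval within 2-fold for 22. Of 25 tested cell cycle genes (34 listed), 0 were called, 0 had an unadjusted p-value under 0.05 and 1 lay below the controls, with a median of -0.12 (0.02 with library size alone) and the interval within 2-fold for 22. That gene, named after its values were seen, was pcna, the sliding clamp of DNA replication, at 46.9 and 43.5 CPM against 48.1 to 79.7, median 57.1. All 7 tested pluripotency and maternal genes (8 listed) had negative log2 fold changes, between -0.85 and -0.01, and 0 were called, although the list's median of -0.10 became 0.03 with library size alone. The oocyte genes zar1, at 2.74 and 2.69 CPM against 3.42 to 6.50, and zp4, at 51.0 and 50.5 against 54.9 to 67.1, lay below all controls, and zar1 was singled out after its values were seen. The POU factor pou5f3.1 was at 106 and 155 CPM against 125 to 237, median 158, and zp2 at 14.7 and 14.2 against 13.4 to 19.5. As pou5f3.1 is numbered as 1 of several related genes, its counts may be uncertain, which was not tested.

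**Figure D5:**
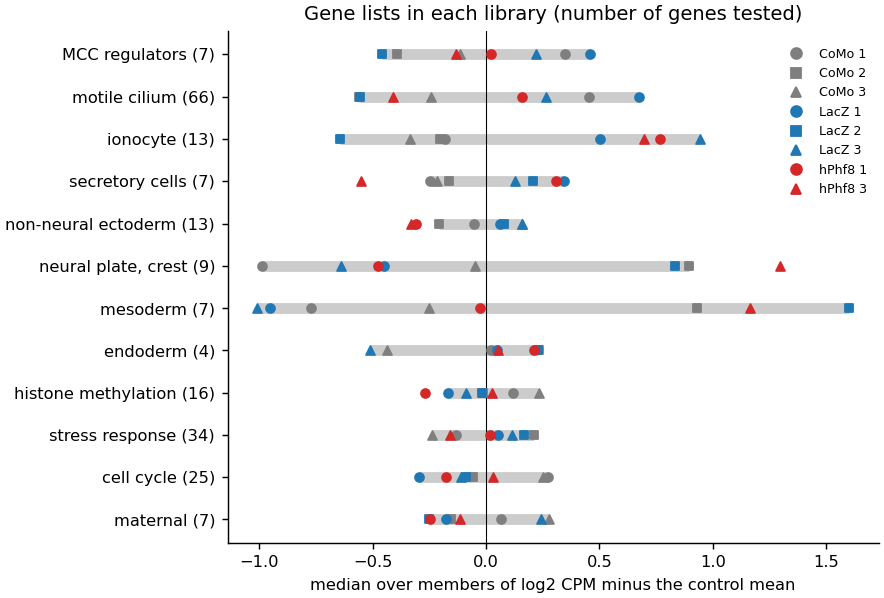
Median over the members of each list of the log2 CPM difference from the mean of the 6 controls (x axis), for each library, with the number of genes tested in parentheses. Grey bars span the controls, grey points are CoMo, blue points LacZ and red points hPhf8, with circles, squares and triangles for replicates 1, 2 and 3. The non-neural ectoderm list is the one in which both hPhf8 libraries, at -0.31 and -0.33, lie outside the control range of -0.21 to 0.16.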

How the data were processed

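Per the labels and the study's methods, stranded total RNA libraries depleted of ribosomal RNA were aligned to the X. tropicalis genome of Xenbase with STAR 2.7.1a, which counted read pairs per gene in the same run. The authors deposited raw counts per gene and library, not normalized, for both strand settings. The sense counts were used here, apart from an alternative fit on counts that ignore the strand. The share of counts collected under features with no gene ID was 16.6% to 31.6% in the controls and 22.4% and 26.0% in hPhf8 replicates 1 and 3, and these were left out. STAR counts pairs that map to 1 place, so near-identical copies are uncertain. Names came from 5 supplementary tables of the study, of at most 2000 rows each, by gene ID, and no value was taken from them.

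Genes with at least 1 read in 75% of the 8 libraries were tested with edgeR 4.0.16 (glmQLFit, glmQLFTest, TMM, two-sided, Benjamini-Hochberg) in R 4.3.3, with no covariate. DESeq2 1.42.0, other scalings, filters, controls, the replicate number and each library left out were alternatives. CPM used TMM factors, and log2 CPM a prior count of 2. Distances used genes averaging 10 counts or more. A permutation of 2 against 6 libraries cannot give a two-sided p under 0.0714 and was not used. The fits were tested on simulated data. The libraries compared and the gene lists were chosen with earlier results of these data known. Named genes were, in each direction, up to 12 called genes by fold, filled by smallest unadjusted p among genes beyond the control range averaging at least 100 counts, then the 3 most abundant members of a list, phf8 and the SUV4-20H genes, and up to 2 IDs without a name. The endoderm, stress and cell cycle lists and those of the study are given by counts. One gene that the rule takes is not reported here.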

Additional observations from a re-analysis of the deposited data

Results flagged for a closer look

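Values of single libraries that stood apart were searched for in 91 groups of 6 control values, where chance gives about 1 in 20, and 7 were found. Of these, 4 were in CoMo replicate 2, which held 14.1 CPM of elavl2 against 8.57 to 10.5 in the other controls, 134 CPM of slc27a4 against 72.9 to 93.1, 14.7 CPM of vhl against 23.0 to 27.7, and 40.2 CPM of ikzf4 against 53.6 to 60.9. In each of them CoMo replicate 2 was the control nearest to the hPhf8 libraries. LacZ replicate 2 held 320 CPM of sec24d-like.1 against 219 to 235 in the other controls, and 17.6 CPM of chrd against 2.54 to 6.44. LacZ replicate 3 held 462 CPM of foxi1 against 172 to 258, more than the 390 and 368 CPM of the hPhf8 libraries.

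The antisense counts were 3.62% of sense and antisense counts together in hPhf8 replicate 3, against 2.34% to 2.88% in the controls. They entered no gene test except as part of an alternative fit on counts that ignore the strand.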

How the results depend on the processing

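The count of 0 genes with an adjusted p-value under 0.05 in edgeR held under every other filter, scaling and choice of controls and without any 1 library (0 to 0, with 793 to 2076 genes at an unadjusted p-value under 0.05), but not in DESeq2, with 19, or with the replicate number as a block. The replicate block called 767 genes, 519 higher and 248 lower, and 4034 at an unadjusted p-value under 0.05. It called 6 when hPhf8 replicate 2 was included, an alternative chosen after seeing the data. Same-numbered CoMo and LacZ libraries deviated together, with correlations of 0.726, 0.668 and 0.379 across genes, as did hPhf8 replicate 1 with them, at 0.452 and 0.49. For hPhf8 replicate 3 the values were 0.244 with CoMo and -0.0443 with LacZ, and its highest was 0.415, with LacZ replicate 2. The other 7 of the 8 libraries correlated best with their own number. Deviations were taken from the mean of each group, which for hPhf8 held 2 libraries. Those of hPhf8 replicates 1 and 3 are therefore opposite by construction, and their correlations are not separate results. The main fit did not take the numbers as pairs, and these correlations do not settle which fit is right. LacZ against CoMo stayed at 0 genes with the replicate block.

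The count of genes beyond the control range was 814 with all 3 hPhf8 libraries, 6008 against same-numbered controls only (the counterpart of the replicate block), and 2014 to 5901 without 1 library, in part because fewer libraries had to be exceeded. Over genes averaging at least 100 counts, distances from the control mean were 0.44, 0.49 and 0.33 for CoMo, 0.48, 0.48 and 0.34 for LacZ, 0.43 and 0.43 for hPhf8 replicates 1 and 3, and 1.41 for hPhf8 replicate 2. The secretory median was 0.15 against CoMo alone, the mesoderm median 1.60 with the replicate block and 1.53 with numbers 1 and 3 of all groups (chosen after seeing the data), and the endoderm median 0.44 with the replicate block. Without 1 library, medians ran from -0.60 to 0.19 (secretory), -1.22 to 0.92 (neural), -0.81 to 0.22 (endoderm) and -0.28 to 0.022 (histone methylation).

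The choice of the 23 named genes by p-value and control range largely sets their direction under the alternatives, so that direction is no sign of stability. Of their 483 values under alternatives, 1 per gene and alternative, 29 passed an adjusted p-value of 0.05. These were 9 of the 23 genes in DESeq2 and 20 of the 23 with the replicate block in edgeR. Among the genes named from the lists, some log2 fold changes turned sign. With library size alone they were rfx2 0.035, foxn4 0.027, itln1 0.017, cdh1 0.080 and zp2 0.031. Against CoMo alone they were itln1 0.23, otog 0.016, cdh1 0.044 and wnt8a -0.023, and against LacZ alone snai2 -0.27 and cdc20b -0.0095. With hPhf8 replicate 2 included they were itln1 0.15, cdc20b -0.14 and ezh2 -0.034, and with the replicate block added itln1 0.066, cdc20b -0.11 and ezh2 -0.041. For cdc20b the value was -0.19 with the replicate block, -0.20 with numbers 1 and 3, -0.0022 with DESeq2 size factors and -0.0024 in DESeq2. Without 1 library, values ran from -0.093 to 0.11 for cdc20b, -0.92 to 0.41 for itln1, -0.39 to 0.053 for otog, -0.23 to 0.10 for cdh1, -0.64 to 1.149 for ncam1, -0.37 to 0.48 for snai2, -1.38 to 1.17 for elavl3, -0.73 to 0.79 for vegt, -1.13 to 2.25 for chrd and -0.12 to 0.67 for wnt8a. Where no value shows it, the cause was not tested.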

Other observations

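Most genes listed for noradrenergic and neuroendocrine cells were lower in hPhf8 replicates 1 and 3 than in the mean of the same-numbered controls. The list was put together after the values were seen, so it is a description with no test. Of 20 tested genes (26 listed), 19 had negative log2 fold changes, with a median of -1.24, and 18 were lower within both replicate numbers. None was called, 11 had an unadjusted p-value under 0.05 in edgeR, all lower, and 3 lay below all controls, namely tbx20, gfra3 and isl1. Of all genes with a symbol, 6.19% were lower at that p-value and 5.88% lay below all controls, and the list was put together for its low values. The homeobox gene phox2a, a regulator of noradrenergic neurons, was at 3.80 CPM in hPhf8 replicate 1 against 14.8 and 18.9 in the same-numbered CoMo and LacZ libraries. In hPhf8 replicate 3 it was at 15.1 against 47.4 and 33.5 CPM. The secretory granule gene chga was at 127 CPM against 144 and 287 for number 1 and at 280 against 549 and 536 CPM for number 3. The factor hand2 was at 19.1 against 21.3 and 42.1 CPM, and at 22.6 against 44.8 and 42.7. The decarboxylase gene ddc, for the synthesis of catecholamines and serotonin, had a log2 fold change of -2.05 (SE 0.84). It was -1.76 (SE 0.75) for the dopamine transporter slc6a3 and -1.20 (SE 0.58) for dbh, which makes noradrenaline. For ddc, slc6a3 and dbh, CoMo replicate 1, at 0.670, 14.1 and 8.89 CPM, lay below hPhf8 replicate 3, at 1.56, 28.6 and 18.9. The listed gene th was at 3.47 and 11.79 CPM in hPhf8 replicates 1 and 3, beside a control median of 11.75. Low values were not shared by hPhf8 replicate 2, with 692.6 CPM of chga, 70.4 of hand2, 30.5 of phox2a and 31.4 of dbh, which lay inside or, for chga, at the upper end of the control ranges of 144 to 692.1, 21.3 to 78.1, 14.8 to 47.4 and 8.89 to 50.9 CPM.

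Some blood and muscle genes were higher in hPhf8 replicate 3 than in hPhf8 replicate 1 and all controls. The myeloid genes mpo and spib were at 9.62 and 6.07 CPM there, against 0.4002 and 0.734 in hPhf8 replicate 1 and at most 0.609 and 0.608 in the controls, and cebpa was at 5.29 CPM against 1.20 and at most 1.60. The muscle genes neb, srl and klhl41 were at 15.9, 26.4 and 8.58 CPM in hPhf8 replicate 3 and at 0.133, 0.200 and 0.334 CPM in hPhf8 replicate 1. Among the controls they were highest in LacZ replicate 2, at 3.45, 8.004 and 3.42 CPM, followed by CoMo replicate 2, at 2.41, 3.43 and 0.965 CPM. In hPhf8 replicate 2, cebpa, neb and srl were at 3.285, 5.161 and 15.95 CPM, above all controls, and mpo, spib and klhl41 were at 0 CPM. These 6 genes were chosen after their values were seen.

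The ID with the largest fold change among genes averaging at least 100 counts was gene5415, which has no name here. It was at 261 and 98.4 CPM in hPhf8 replicates 1 and 3, at 17.5 to 32.9 CPM in the control libraries numbered 1 and 3, at 0 and 0.0566 CPM in the control libraries numbered 2, and at 0.469 CPM in hPhf8 replicate 2. Its log2 fold change was 3.48 (SE 1.22, edgeR unadjusted p = 0.0162), and it was chosen after its values were seen.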
